A study of Mus musculus with 4 samples.

Results

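The genes described here encode the RIG-I-like receptors, which detect double-stranded RNA in the cytosol, and the proteins that carry their signal. They were taken by name from the gene table of an RNA sequencing experiment: 3 sensors (Ifih1, Ddx58 and Dhx58), the ubiquitin ligase Rnf135, the adaptor Mavs, the ligase Traf3 and the kinases Tbk1 and Ikbke. Of these 8 genes, 7 were among the 10716 genes of the table, and Ikbke was not. All libraries were made from fetal liver of C57BL/6 mice at embryonic day 14.5, from sorted erythroid cells. The sort was for YFP from the R26eYFP reporter in every library. There were 2 knockout-labelled libraries (replicates 1 and 2), in which Cre recombinase from the erythropoietin receptor gene (Epor) acts on Adar, and 2 control libraries (replicates 3 and 8) labelled wild type. Their genotype is given as Epor-Adar / +, so the number of Adar alleles deleted is not stated, and the labels do not say whether the controls carried Cre. Epor-driven Cre acts in erythroid cells, so the design says nothing of deletion in other cell types of the liver.

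Ifih1 encodes MDA5, which binds long double-stranded RNA, and Ddx58 encodes RIG-I, which binds short double-stranded RNA with a free triphosphate end. Both hand their signal to MAVS on the mitochondrial surface through paired caspase recruitment domains (CARDs), and Dhx58 encodes LGP2, a related helicase without CARDs that modulates the other sensors. Downstream of MAVS, TRAF3 and the kinases TBK1 and IKKε (from Ikbke) activate the transcription factors IRF3 and IRF7, which switch on interferon genes. In the mouse, the editing enzyme ADAR1 is known to keep cellular double-stranded RNA from activating MDA5. All 3 sensor genes are known as interferon-stimulated genes.

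The promoter windows of 2 sensors are shown because both hold the core of the interferon-stimulated response element (ISRE), the site bound by interferon-activated transcription factor complexes, and that of Mavs is shown beside them because it holds none. Each runs 5′ to 3′ on the strand of the gene, from 250 bases before to 50 bases after the RefSeq transcription start on GRCm38.p6, and capitals mark the motif match. The windows are chr2:62646206-62646505, minus strand, for Ifih1, chr4:40239776-40240075, minus strand, for Ddx58, and chr2:131233813-131234112, plus strand, for Mavs.
Ifih1: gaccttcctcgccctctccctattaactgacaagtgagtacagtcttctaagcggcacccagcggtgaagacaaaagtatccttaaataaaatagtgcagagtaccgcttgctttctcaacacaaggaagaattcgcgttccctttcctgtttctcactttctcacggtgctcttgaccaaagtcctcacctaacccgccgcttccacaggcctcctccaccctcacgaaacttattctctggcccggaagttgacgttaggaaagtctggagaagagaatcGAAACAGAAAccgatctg
Ddx58: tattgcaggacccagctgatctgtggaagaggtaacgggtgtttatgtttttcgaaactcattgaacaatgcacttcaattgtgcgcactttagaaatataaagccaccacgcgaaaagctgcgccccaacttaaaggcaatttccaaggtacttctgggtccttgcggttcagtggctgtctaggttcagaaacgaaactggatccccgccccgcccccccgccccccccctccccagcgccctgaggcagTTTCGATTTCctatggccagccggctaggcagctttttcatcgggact
Mavs: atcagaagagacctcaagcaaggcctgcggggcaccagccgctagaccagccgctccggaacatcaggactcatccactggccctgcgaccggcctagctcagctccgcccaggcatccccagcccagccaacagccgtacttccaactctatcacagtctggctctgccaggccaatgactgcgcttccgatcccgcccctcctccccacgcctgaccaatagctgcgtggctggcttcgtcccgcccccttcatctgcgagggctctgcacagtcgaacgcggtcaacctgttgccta

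The motif searched for the ISRE core was GAAA, any 2 bases and GAAA again, on either strand. Ifih1 held it as GAAACAGAAA at transcribed bases 33 to 42, and Ddx58 held it on the opposite strand, read as TTTCGATTTC at transcribed bases 3 to 12. RefSeq windows were found for 7 of the 8 genes, all except Dhx58. The other 5 windows, those of Mavs, Tbk1, Ikbke, Traf3 and Rnf135, had no match. Of 32851 windows of 300 bases in the RefSeq table, 3.44% held this motif. The STAT-binding motif TTCNNNGAA (GAS), which reads the same on both strands, was in none of the 7 windows and in 8.3% of all windows. A match describes letters in a window and is not evidence of a bound site, and the absence of one says nothing of sites elsewhere.

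The counts in the table summed to between 28356401 and 44016809 per library. Y-linked transcripts went against the labelled sex in 3 of the 4 libraries. The 4 Y-linked genes read had 11705 and 3 counts in knockout-labelled replicates 1 and 2, which are labelled female and male. In control replicates 3 and 8, labelled female and male, they had 5599 and 10695 counts. Adar itself, counted over the whole gene, had 67.1 and 101.6 CPM in knockout-labelled libraries against 50.9 and 46.9 CPM in the controls, which does not check a deletion of some exons. CPM here are counts scaled to a common library total, after TMM scaling of the libraries. All 9 erythroid marker genes were in the table, and 0 of them passed the test, where 0.103% of all genes did. Their summed level was 36848 and 39791 CPM in knockout-labelled libraries against 57075 and 38182 CPM in the controls. The labels do not say whether each library came from a separate embryo, so the p-values below measure only the spread between these libraries.

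For all 3 sensor genes the knockout-labelled values lay above both control values, while the adaptor Mavs and the kinase Tbk1 had overlapping values in the 2 groups. Ifih1 averaged 4.39 times its control level, and the 2 knockout-labelled libraries were alike. Ddx58 and Dhx58 averaged 24.9 and 15.1 times their control levels, with the larger part in knockout-labelled replicate 1. None of the 7 genes passed an adjusted p of 0.05 in edgeR's quasi-likelihood test (0 of 7), where 0.103% of all genes did, and 3 of 7 were higher at an unadjusted p under 0.05, where 9.82% of all genes were. At the same level 0 of 7 were lower, where 2.08% of all genes were. Ddx58 and Dhx58 were below 1 CPM in both controls and so had to be higher in knockout-labelled libraries to be in the table, which leaves Ifih1 as the one sensor whose direction was free. The member counts given here are therefore not set against the shares of all genes as support. Other tests on the same counts called the 3 sensors: DESeq2 called 3 of the 7 genes, against 3.49% of all genes, and edgeR's likelihood ratio test called 3, against 3.26%. Limma-voom called 0 of the 7, against 0.0747% of all genes. The sensors Ifih1 and Ddx58 were called without library scaling, where 0.812% of all genes were, and with labelled sex as a covariate, where 0.383% were; the sex labels go against the Y-linked counts in 3 of 4 libraries, so that covariate does not stand for sex. Ifih1 alone was called with the stricter filter (0.142% of all genes), with robust=FALSE and with legacy=FALSE (0.14% of all genes each). Fits with 1 library left out take no spread from the group that is left with 1 library, so their calls are not named here.

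**Figure D1:**
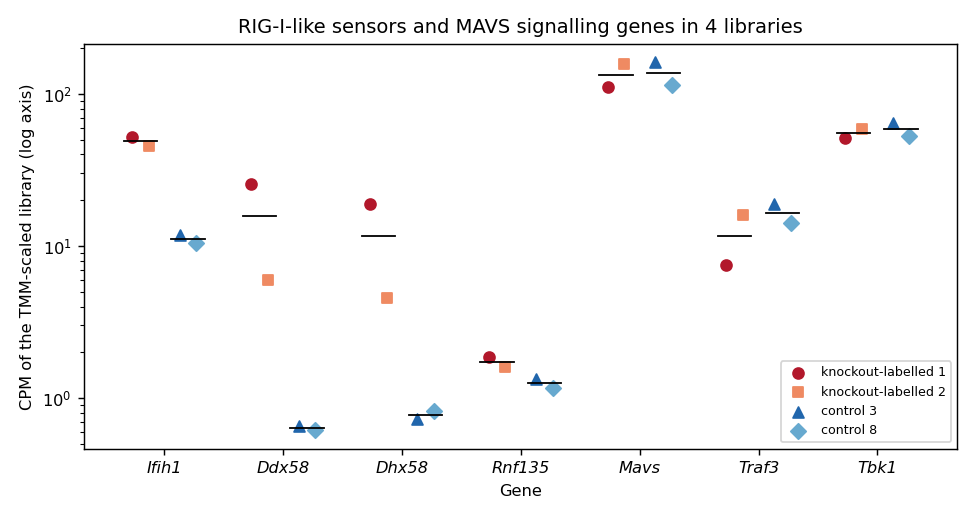
CPM of the TMM-scaled library on a log axis for each gene, with the 2 knockout-labelled libraries left of the 2 controls; points are libraries and short lines are group means. The 3 sensors at the left lie above their controls in both knockout-labelled libraries, with Ddx58 at 25.5 and 6.01 CPM in knockout-labelled libraries against 0.653 and 0.613 CPM in controls, while Mavs and Tbk1 overlap.

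Ifih1, the gene of MDA5 (ENSMUSG00000026896, chromosome 2 of NCBIM37, 62433850 to 62484312, minus strand), had 1609 and 1746 counts in knockout-labelled libraries and 324 and 497 counts in the controls. In CPM these were 52.5 and 45.3 in knockout-labelled libraries against 11.7 and 10.5 in the controls. The groups were far apart and each was tight, with means of 48.9 ± 5.12 CPM in knockout-labelled cells and 11.1 ± 0.882 CPM in controls (SD, n = 2 each). Its log2 fold change was 2.14 (SE 0.22, 95% interval 1.60 to 2.67, edgeR adjusted p = 0.0505), just outside the threshold of 0.05. Ifih1 ranked 15th of 10716 genes by p. Across 14 alternative fits the log2 fold change ran from 2.03 to 2.23. Among alternatives with all 4 libraries, the adjusted p ran from 1.77e-12 with DESeq2 to 0.0658 with limma-voom. Leaving out control replicate 8 gave a log2 fold change of 2.05.

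Ddx58, the gene of RIG-I (ENSMUSG00000040296, chromosome 4, 40150806 to 40186861, minus strand), was barely detected in the controls. It had 782 and 232 counts in knockout-labelled libraries against 18 and 29 counts in the controls, or 25.5 and 6.01 CPM in knockout-labelled cells against 0.653 and 0.613 CPM in controls. The groups did not overlap, but knockout-labelled replicate 1 was 4.24 times replicate 2, with counting intervals that do not overlap (exact Poisson 95% intervals of 23.8 to 27.4 and 5.26 to 6.84 CPM, for counting error only). Knockout-labelled over control, the log2 fold change was 4.63 (SE 0.77, 95% interval 2.75 to 6.52, edgeR adjusted p = 0.145). Leaving out knockout-labelled replicate 1 gave 3.25, and leaving out replicate 2 gave 5.32. Each of those fits holds 1 knockout-labelled library, so its test takes no spread from that group. In the other alternatives the log2 fold change ran from 4.22 with limma-voom to 4.68 without control replicate 3. Among alternatives with all 4 libraries, the adjusted p ran from 2.75e-10 with DESeq2 to 0.349 with limma-voom.

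Dhx58, the gene of LGP2 (ENSMUSG00000017830, chromosome 11, 100556018 to 100565585, minus strand), followed the same shape. It had 576 and 175 counts in knockout-labelled libraries and 20 and 39 counts in the controls, or 18.8 and 4.54 CPM in knockout-labelled cells against 0.725 and 0.824 CPM in controls. Both knockout-labelled libraries were above both controls, and replicate 1 was 4.14 times replicate 2. In edgeR the log2 fold change was 3.90 (SE 0.74, 95% interval 2.09 to 5.71, edgeR adjusted p = 0.191). It was 2.54 without knockout-labelled replicate 1 and 4.57 without replicate 2, in fits that take no spread from the knockout-labelled group. Among alternatives with all 4 libraries, the adjusted p of Dhx58 ran from 4.98e-07 with DESeq2 to 0.39 with limma-voom. The table holds genes over 1 CPM in at least 2 libraries, so Ddx58 and Dhx58, below 1 CPM in both controls, are in it only through the knockout-labelled libraries and had to differ. A transcript annotated on the opposite strand, Gm11547, overlaps Dhx58 by 2817 bases and is not in the table; whether counting used strand is not stated.

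The difference between the 2 knockout-labelled libraries was not shared by all sensors. The ratio of replicate 1 to replicate 2 was 1.16 for Ifih1, a value reached or exceeded by 34.6% of all genes. For Ddx58 and Dhx58 the ratio was reached by 0.961% and 1.03% of genes. The counts of Ddx58 relative to Dhx58 were 1.36 and 1.33 in knockout-labelled libraries, against 0.9 and 0.744 in the controls, so these 2 genes kept nearly one proportion in both knockout-labelled libraries. Ddx58 relative to Ifih1 was 0.486 and 0.133 in knockout-labelled libraries, against 0.0556 and 0.0584 in the controls. Of 7 granulocyte marker genes 4 were in the table (Mpo, Prtn3, S100a8 and S100a9). Their summed level was also high in knockout-labelled replicate 1, at 171.0 CPM, with 24.0 CPM in replicate 2, against 26.4 and 28.1 CPM in the controls. The 2 knockout-labelled libraries also differed in Y-linked counts, at 11705 in replicate 1 and 3 in replicate 2. The part of either difference in these values was not tested.

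Rnf135 (ENSMUSG00000020707, chromosome 11, 79997353 to 80013259, plus strand) encodes Riplet, a ubiquitin ligase that acts on RIG-I. Its level was low in every library, with 57 and 62 counts in knockout-labelled libraries against 37 and 55 counts in the controls. These were 1.86 and 1.61 CPM in knockout-labelled cells and 1.34 and 1.16 CPM in controls. The knockout-labelled values lay above the controls, but the exact Poisson intervals of single libraries overlapped (1.23 to 2.06 CPM in knockout-labelled replicate 2, 0.945 to 1.85 CPM in control replicate 3). Rnf135 had a log2 fold change of 0.47 (SE 0.37, 95% interval -0.43 to 1.38, edgeR adjusted p = 0.533), and the adjusted p was at least 0.321 in every alternative run. With Rnf135, 4 of the 7 genes had both knockout-labelled values above both controls, as 27.4% of all genes did, and 0 had both below, as 26.7% did. Ddx58 and Dhx58, among those 4, had to differ to be in the table.

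Mavs, the adaptor shared by MDA5 and RIG-I (ENSMUSG00000037523, chromosome 2, 131059799 to 131073761, plus strand), was the most abundant of these transcripts per length. It had 110.4 and 156.5 CPM in knockout-labelled libraries against 161.3 and 115.3 CPM in the controls. The groups overlapped, with means of 133 ± 32.7 CPM in knockout-labelled cells and 138 ± 32.5 CPM in controls (SD, n = 2 each). For Mavs the log2 fold change was -0.05 (SE 0.27, 95% interval -0.71 to 0.61, edgeR adjusted p = 0.929). The interval leaves room for a change in either direction and is not a limit of detection. Its sign turned when knockout-labelled replicate 1 or control replicate 3 was left out.

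Tbk1, the kinase that phosphorylates IRF3 (ENSMUSG00000020115, chromosome 10, 120983511 to 121023850, minus strand), had 51.4 and 59.0 CPM in knockout-labelled libraries against 64.0 and 53.0 CPM in the controls. These values overlapped, and the log2 fold change was -0.08 (SE 0.20, 95% interval -0.57 to 0.41, edgeR adjusted p = 0.836), and its sign turned on leaving out either of the same 2 libraries as for Mavs. Traf3, a ligase recruited by MAVS (ENSMUSG00000021277, chromosome 12, 112404581 to 112505364, plus strand), had 7.503 and 15.9 CPM in knockout-labelled libraries against 18.998 and 14.1 CPM in the controls. Knockout-labelled replicate 1 was low and replicate 2 lay between the controls. Traf3 had a log2 fold change of -0.50 (SE 0.40, 95% interval -1.48 to 0.48, edgeR adjusted p = 0.544). Leaving out knockout-labelled replicate 2 gave -1.15, and leaving out replicate 1 gave -0.05, so the value rests on 1 library. A protein-coding gene on the opposite strand, 4930595D18Rik, overlaps the span of Traf3 and is not in the table.

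**Figure D2:**
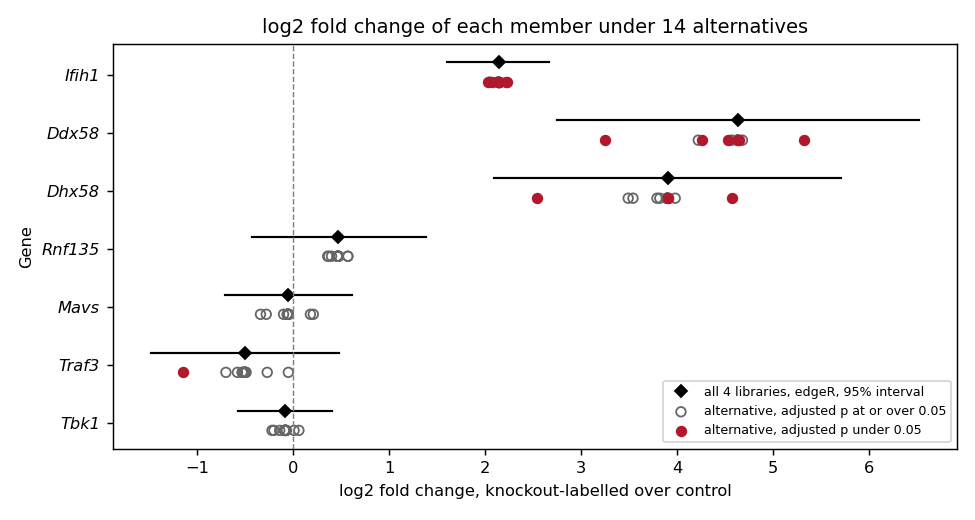
The log2 fold change of each gene, knockout-labelled over control, on the horizontal axis; diamonds with lines are edgeR values with 95% intervals from all 4 libraries, and circles below are the 14 alternative fits, filled where the adjusted p was under 0.05. The Ifih1 values stay between 2.03 and 2.23, while those of Ddx58 spread from 3.25 to 5.32, and 0 of 14 were filled for Mavs, Tbk1 and Rnf135.

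Sensors were then set against adaptor and kinase within each library by dividing counts by those of Mavs, a ratio that no library scaling can move. On the log2 scale Ifih1 to Mavs was -1.07 and -1.79 in knockout-labelled libraries, against -3.78 and -3.46 in the controls. Ddx58 to Mavs was -2.11 and -4.70 in knockout-labelled libraries, against -7.95 and -7.56 in the controls, and Dhx58 to Mavs was -2.55 and -5.11 in knockout-labelled libraries, against -7.80 and -7.13 in the controls. For each sensor both knockout-labelled ratios were above both control ratios, with differences of group means of 2.19, 4.35 and 3.63 for Ifih1, Ddx58 and Dhx58. Ddx58 and Dhx58, below 1 CPM in both controls, had to be higher in knockout-labelled libraries to be in the table. Among the sensor ratios, only that of Ifih1 was therefore free in direction. Leaving out knockout-labelled replicate 1 gave differences of 1.83, 3.05 and 2.35, and leaving out replicate 2 gave 2.55, 5.64 and 4.91, in the same order of genes. Tbk1 to Mavs was -1.10 and -1.41 in knockout-labelled libraries against -1.33 and -1.12 in the controls, and these overlapped. Traf3 to Mavs was lower in both knockout-labelled libraries, at -3.88 and -3.30, against -3.09 and -3.03 in the controls. The CPM of Traf3 itself overlapped between the groups, and Mavs varied between libraries. Rnf135 to Mavs was higher in both knockout-labelled libraries, at -5.89 and -6.61, against -6.91 and -6.63 in the controls. The share of all genes whose ratio to Mavs did not overlap was not computed, so these orders are not read as a result. With 2 libraries against 2, an exact two-sided permutation test cannot go below p = 0.333, so these ratios are given as values.

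**Figure D3:**
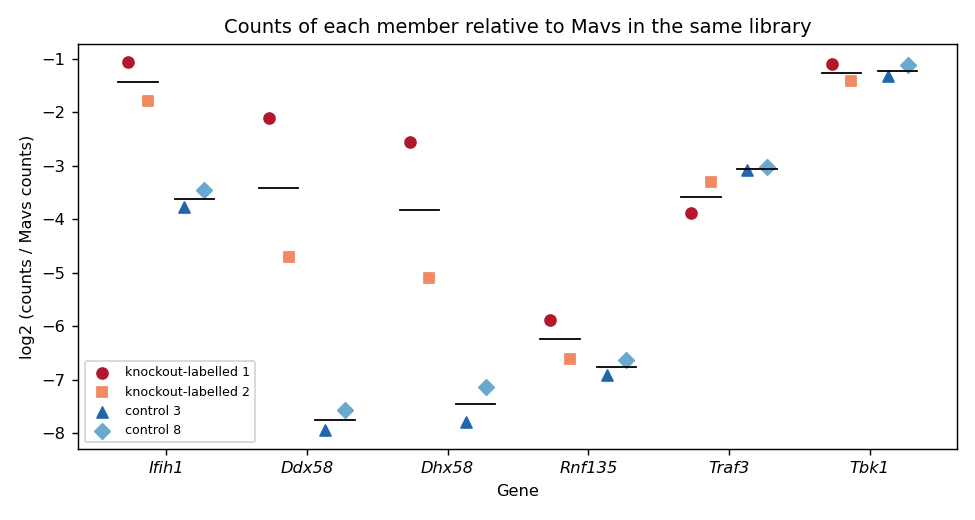
The log2 of the counts of each gene divided by those of Mavs in the same library, with the 2 knockout-labelled libraries left of the 2 controls and short lines at group means. The sensor ratios are higher in both knockout-labelled libraries, though Ddx58 and Dhx58 had to be higher there to be in the table. Those of Tbk1 overlap, from -1.41 to -1.10 over all libraries.

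Scaled by the length of annotated exons, the order of the transcripts differed between the groups at the sensor end. Mavs averaged 39.9 ± 9.76 CPM per kb in knockout-labelled cells and 41.4 ± 9.72 in controls, and Tbk1 followed with 18.2 ± 1.78 in knockout-labelled cells and 19.3 ± 2.55 CPM per kb in controls (SD, n = 2 each). Ifih1 was the third in both knockout-labelled libraries (9.51 and 8.20 CPM per kb). In the controls it had 2.13 and 1.90 CPM per kb, beside 2.56 and 1.90 for Traf3, from which it did not differ beyond the spread. Ddx58 was the lowest of the 7 in both controls, at 0.0926 and 0.0869 CPM per kb, and Dhx58 was next at 0.210 and 0.239. Both were below 1 CPM in both controls and had to be higher in knockout-labelled libraries to be in the table. Their change of place in the order is therefore not a free result. In the knockout-labelled libraries Dhx58 (5.44 and 1.31 CPM per kb), Ddx58 (3.62 and 0.853) and Traf3 (1.01 and 2.14) overlapped, and Rnf135 was the lowest, at 0.869 and 0.751. The sensors thus stood below Mavs and Tbk1 in every library.

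**Figure D4:**
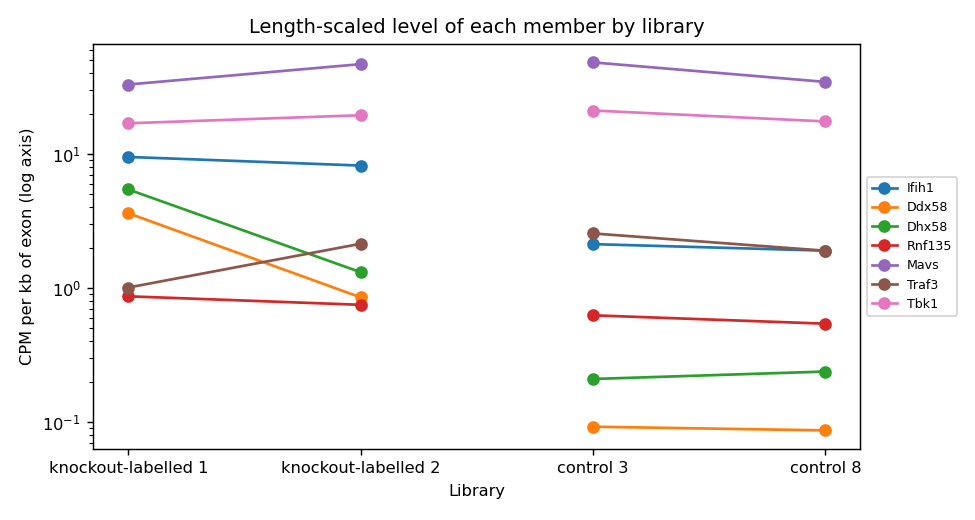
CPM per kb of annotated exon on a log axis for each gene, with the knockout-labelled libraries at the left and the controls at the right; lines join the 2 libraries of a group. Mavs and Tbk1 lead in all 4 libraries, and Ddx58 and Dhx58 are the lowest in the controls, at 0.239 CPM per kb or less.

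Further genes of the pathway were read from 4 lists. Of 30 regulators of the RIG-I-like receptors in the table, 0 passed as higher or lower, where 0.103% of all genes passed. Their median log2 fold change was -0.02, beside 0.00 over all genes. Those with the smallest p were Rnf114 (log2 fold change 1.96, SE 0.42, edgeR adjusted p = 0.26), a ubiquitin ligase, Trim25 (0.86, SE 0.19, adjusted p = 0.277), a ligase of the RIG-I pathway, and Atg12 (0.86, SE 0.34, adjusted p = 0.419), an autophagy gene. Trim25 had 114.2 and 127.2 CPM in knockout-labelled libraries against 61.1 and 72.1 CPM in the controls, and the groups did not overlap. Of 22 genes that signal below MAVS, 0 passed, where 0.103% of all genes passed, with a median of 0.04. With so few calls over all genes, 0 in lists of this size says nothing of these genes. Irf7, the interferon-inducible factor that amplifies interferon production, had 116.1 and 51.3 CPM in knockout-labelled libraries against 5.22 and 6.49 CPM in the controls (log2 fold change 3.83, SE 0.44, edgeR adjusted p = 0.0747). The NF-kB subunit gene Relb had 3.39 (SE 0.56, adjusted p = 0.144) and the adaptor gene Traf5 1.17 (SE 0.25, adjusted p = 0.26). Irf3, named here after its values were seen, had 22.7 and 31.0 CPM in knockout-labelled libraries against 39.5 and 40.1 CPM in the controls (log2 fold change -0.57, SE 0.23, adjusted p = 0.42).

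Of the interferon ligands and early targets, 5 of 13 listed genes were in the table, none of them an interferon gene, and all 5 are targets. Of these, 2 rose and 0 fell, where 0.103% of all genes passed, and the median was 4.88. The other 2 with higher values in both knockout-labelled libraries, Ifit1 and Cxcl10, were below 1 CPM in both controls and so had to differ to be in the table. Rsad2, the antiviral protein viperin, reached 220.2 and 173.1 CPM in knockout-labelled libraries against 7.11 and 6.23 CPM in the controls (edgeR adjusted p = 0.00663). Isg15, a ubiquitin-like modifier, reached 500.6 and 217.3 CPM in knockout-labelled libraries against 3.08 and 2.92 CPM in the controls (adjusted p = 0.027). Ifit2, named after its values were seen, overlapped, with 5.22 and 8.42 CPM in knockout-labelled libraries and 8.12 and 8.43 CPM in the controls. Among 13 other sensors of double-stranded RNA and DNA, 2 rose and 0 fell, where 0.103% of all genes passed, and the median was 0.16. Of the 13, 3 were below 1 CPM in both controls and so had to differ to be in the table (Oas1a, Oas2 and Oas3). The 2 that rose were the oligoadenylate synthetase genes Oas3 (log2 fold change 8.63, SE 0.41, edgeR adjusted p = 0.00663) and Oas1b (4.26, SE 0.37, adjusted p = 0.043), whose family shares similar sequence, so reads between them may be split. The kinase gene Eif2ak2 (PKR), also named after its values were seen, had 43.8 and 77.4 CPM in knockout-labelled libraries against 33.4 and 31.4 CPM in the controls (0.90, SE 0.30, adjusted p = 0.39).

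**Figure D5:**
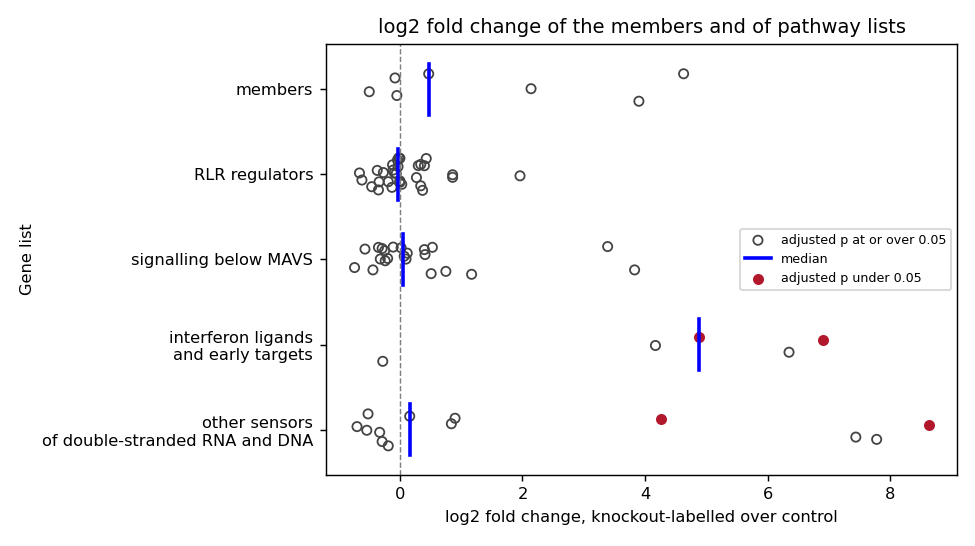
The log2 fold change, knockout-labelled over control, of each gene in the members and 4 pathway lists; vertical position within a row is arbitrary, bars are list medians and filled points passed an adjusted p of 0.05. The regulators and the genes below MAVS centre near 0, with medians of -0.02 and 0.04.

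The genes whose profiles over the 4 libraries lay closest to each sensor were found by Euclidean distance of log2 CPM after subtracting the control mean, among 9635 genes. Closest to Ifih1 were Calcrl (distance 0.31), Tecta (0.41) and BC006779 (0.42). Closest to Ddx58 were P2rx7 (0.20), Samd9l (0.44) and Usp18 (0.65), the last a protease that removes ISG15. Closest to Dhx58 were Ndrg1 (0.35), Irf7 (0.69) and Usp18 (0.73). P2rx7, which encodes an ATP-gated channel, had 35.9 and 8.09 CPM in knockout-labelled libraries against 0.798 and 0.824 CPM in the controls, much like Ddx58. Both genes were below 1 CPM in both controls and so had to be higher in knockout-labelled libraries to be in the table. Calcrl, which encodes a receptor of endothelial cells among others, had 11.97 and 7.98 CPM in knockout-labelled libraries against 2.103 and 2.197 CPM in the controls.

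Cell-type markers were read beside these values, because in bulk RNA fewer cells of a type and less RNA per cell cannot be told apart. The 3 endothelial markers Pecam1, Cdh5 and Kdr summed to 20.8 and 17.5 CPM in knockout-labelled libraries against 8.05 and 6.72 CPM in the controls, in the same direction as the sensors. Of these 3, 0 passed the test, where 0.103% of all genes did. At an unadjusted p under 0.05, 2 were higher, where 9.82% of all genes were. Of 5 megakaryocyte markers 4 were in the table, and they summed to 121.4 and 75.3 CPM in knockout-labelled libraries against 39.4 and 64.3 CPM in the controls. The part of both in the sensor values was not tested. Of 11 macrophage markers 9 were in the table, and they summed to 9.26 and 18.1 CPM in knockout-labelled libraries against 53.6 and 25.4 CPM in the controls, without overlap. Of these 9, 0 passed the test, where 0.103% of all genes did. At an unadjusted p under 0.05, 6 were lower, where 2.08% of all genes were. The median log2 fold change of the 9 was -1.73, and the part of these cells in the sensor values was not tested. Of 7 hepatoblast markers 6 were in the table and their sums overlapped, with 57.5 and 67.3 CPM in knockout-labelled libraries and 122.4 and 48.3 CPM in the controls. None of 5 lymphoid and plasmacytoid dendritic cell markers was in the table.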

How the data were processed

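The gene table was read as deposited: raw counts per gene, whole numbers, for 2 knockout-labelled and 2 control libraries. The submitters' processing notes name, without roles, edgeR and limma, HTSeq, Bowtie2 2.1.0.0, TopHat2 2.0.8 and Trimmomatic 0.30 and the builds mm9 and NCBIM37. Per the file headers the authors also deposited TMM-scaled CPM, log2 fold changes coded wild type minus knockout, average log2 expression, p-values and moderated t and B scores; these are not used in the results. Strand and the treatment of shared reads are not given in the sources used here. All 10716 genes exceeded 1 CPM in at least 2 libraries.

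Counts were fitted over the whole table in edgeR 4.0.16 (R 4.3.3) with filterByExpr, TMM, glmQLFit (robust=TRUE, legacy=TRUE) and glmQLFTest (two-sided), and p-values were adjusted by Benjamini-Hochberg over all genes. The filter removed 0 genes. Alternatives used DESeq2 1.42.0, limma 3.58.1, other scalings, filters and dispersion settings, labelled sex, and each library left out. Named genes were the members, Adar, in each pathway list those past the threshold or else the 3 with the smallest p, and the 3 nearest profiles per sensor (mean log2 CPM at least 1, prior count 2). Members and lists were chosen with earlier results of these data known. Positions and exon lengths are from a GENCODE annotation on NCBIM37, and promoters from RefSeq on GRCm38.p6.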

Additional observations from a re-analysis of the deposited data

How the results depend on the processing

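No paired analysis was possible because the groups share no replicate numbers. The 11 genes called over the table became 87 without library scaling, 374 with DESeq2, 349 with the likelihood ratio test, 41 with labelled sex as a covariate and from 27 to 3492 when 1 library was left out. The 3492 calls came without knockout-labelled replicate 2, where 1641 were lower. Members called, 0 in the main fit, numbered 1 with the stricter filter, with robust=FALSE and with legacy=FALSE. They numbered 2 without library scaling and with labelled sex, and 3 with the likelihood ratio test and with DESeq2. Pathway genes called, 4 with all libraries, numbered 9 without scaling, 13 with the likelihood ratio test and with DESeq2, 8 with labelled sex and from 5 to 30 when 1 library was left out. With 1 library left out, the log2 fold change ran from -0.34 to 0.21 for Mavs and from -0.22 to 0.06 for Tbk1, and the difference in the log2 ratio of Tbk1 to Mavs from -0.18 to 0.12. The lone library of a group is then assumed to vary like the other group. Counts of member and pathway calls from fits with 1 library left out are therefore not given. The 4 pathway lists held 70 genes in the table, of which 5 were there only through the knockout-labelled libraries and had to differ. Beside the pathway calls, the share of all genes called was 0.812% without scaling and 0.383% with labelled sex. It was 3.26% with the likelihood ratio test and 3.49% with DESeq2. Of the alternative values of the 7 members, 4 turned sign, and these were values of Mavs and Tbk1 with 1 library left out. The causes were not tested. As the filter removed 0 genes, the alternative without a filter repeats the main fit. Without scaling the median over all genes was -0.069. Counts of 18 to 62 limit Ddx58 and Dhx58 in the controls and Rnf135 throughout.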

Other observations

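The other helicase genes among the listed sensors were picked out after their values were seen. Dhx9, Ddx21, Ddx1, Dhx15 and Dhx33 each had both knockout-labelled values below both controls, as 26.7% of all genes did, and the values of Dhx36 overlapped (log2 fold change 0.16). Dhx33 had 14.9 and 28.04 CPM in knockout-labelled libraries against 32.9 and 36.8 CPM in the controls (log2 fold change -0.70, SE 0.33, edgeR adjusted p = 0.433). Ddx21, a nucleolar helicase, had 186.4 and 215.9 CPM in knockout-labelled libraries against 247.7 and 336.0 CPM in the controls (-0.54, SE 0.23, adjusted p = 0.433). None of these helicase genes passed the test, where 0.103% of all genes did.

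Aim2, a sensor of cytosolic DNA also named after its values were seen, had 75.5 and 36.1 CPM in knockout-labelled libraries. The controls had 28.9 and 33.3 CPM (log2 fold change 0.84, SE 0.36, edgeR adjusted p = 0.433). Knockout-labelled replicate 2 was close to control replicate 8, so most of the difference lay in replicate 1.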
